A study of Caenorhabditis elegans with 9 samples.

Results

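The 10 genes described here encode the nuclear lamina and the proteins that tie it to chromatin, to the inner nuclear membrane and to the cytoskeleton in Caenorhabditis elegans. They were chosen by name and role, with earlier results of these data known, and are the single lamin lmn-1, the DNA-binding protein baf-1, the LEM-domain genes emr-1, lem-2 and lem-3, the SUN-domain genes unc-84 and sun-1, and the KASH-domain genes unc-83, anc-1 and zyg-12. They hold 10 of the 43901 loci of the coverage table and 16 of its 49395 rows, where a row is a transcript. All 10 passed the minimum mean coverage of 1 that left 19567 loci for testing. The question asked of them was whether the partners of EMR-1 and LEM-2 change in transcript level when these proteins are removed.

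The lamina is a meshwork of lamin under the inner nuclear membrane. Emerin (EMR-1) and LEM-2 are inner membrane proteins whose LEM domain binds BAF-1, a small protein that bridges DNA and the lamina, and both need lamin to stay at the envelope. LINC complexes cross the envelope: a SUN protein of the inner membrane holds a KASH protein of the outer membrane, which in turn binds motors or actin. In the worm UNC-84 is the SUN protein of somatic cells and works with UNC-83 in nuclear migration and with ANC-1 in nuclear anchorage, whereas SUN-1 and ZYG-12 act in the germ line and early embryo, where they move chromosomes in meiosis and attach the centrosome to the nucleus.

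RNA came from whole young adults, with 3 libraries of wild type (N2, hereafter WT), 2 of emr-1(gk119) (strain BN20), 2 of lem-2(tm1582) (strain BN19) and 2 of BN19 worms fed bacteria that made dsRNA (double-stranded RNA) of the whole emr-1 cDNA. This last group carries the label emr-1(RNAi) lem-2(tm1582), and its libraries are called the double libraries. The study's methods describe cultures of about 40000 synchronized L1 larvae kept for 53 h at 20 °C in liquid culture on RNAi bacteria, and bacteria with an empty L4440 plasmid as the negative control, without spelling out which bacteria each group ate. The knockdown replaces a second mutation because worms without both proteins die as embryos, so this group combines a deletion with an RNAi whose depth in each tissue is not known. The labels and the RNAi section of the methods give BN19 as the strain of the double libraries. Elsewhere the methods list a strain BN24 among those sequenced, and the labels were followed. The bases that gk119 and tm1582 remove, and the libraries that shared a lane, are not given in the sources used here. Nothing in the labels says that libraries of a group came from separate cultures, so the p-values measure the spread between these samples, which may be technical.

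The values are base coverage, the median over the bases of an exon and then over the exons of a transcript, after the authors' quantile normalization. They are per base and can be compared between genes. The reads per library were not used, and precision is judged from the spread between replicates. Differences are log2 changes of coverage + 1 with their standard error (SE), tested with limma over all loci, and a gene was called at a Benjamini-Hochberg adjusted p under 0.05. Over all loci the median change was 0.01 in emr-1(gk119) against WT, 0.06 in lem-2(tm1582) against WT, 0.35 in the double libraries against WT and 0.25 in the double libraries against lem-2(tm1582). After quantile normalization was repeated on the rows of the table, the last 2 medians became -0.02 and -0.01, and the calls of the double libraries against WT went from 5164 loci higher and 2354 lower to 3372 and 3370.

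In WT, baf-1 was the most covered of the 10 genes and stood above 95.3% of the tested loci, followed by lmn-1, above 91.8%, and sun-1, above 86.4%. The WT libraries of these 3 genes did not overlap with each other or with the next gene in the order. Below them came emr-1, zyg-12, lem-3, lem-2, unc-83 and unc-84, from 79.5% down to 66.1% of loci, and each of these overlapped with its neighbour in WT. Coverage of anc-1, the giant actin-binding KASH gene, was the lowest, above 38.1% of loci. The 10 genes thus spanned mean WT coverages from 5.31 ± 1.63 (SD, n = 3) for anc-1 to 239 ± 44.4 (SD, n = 3) for baf-1.

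**Figure D1:**
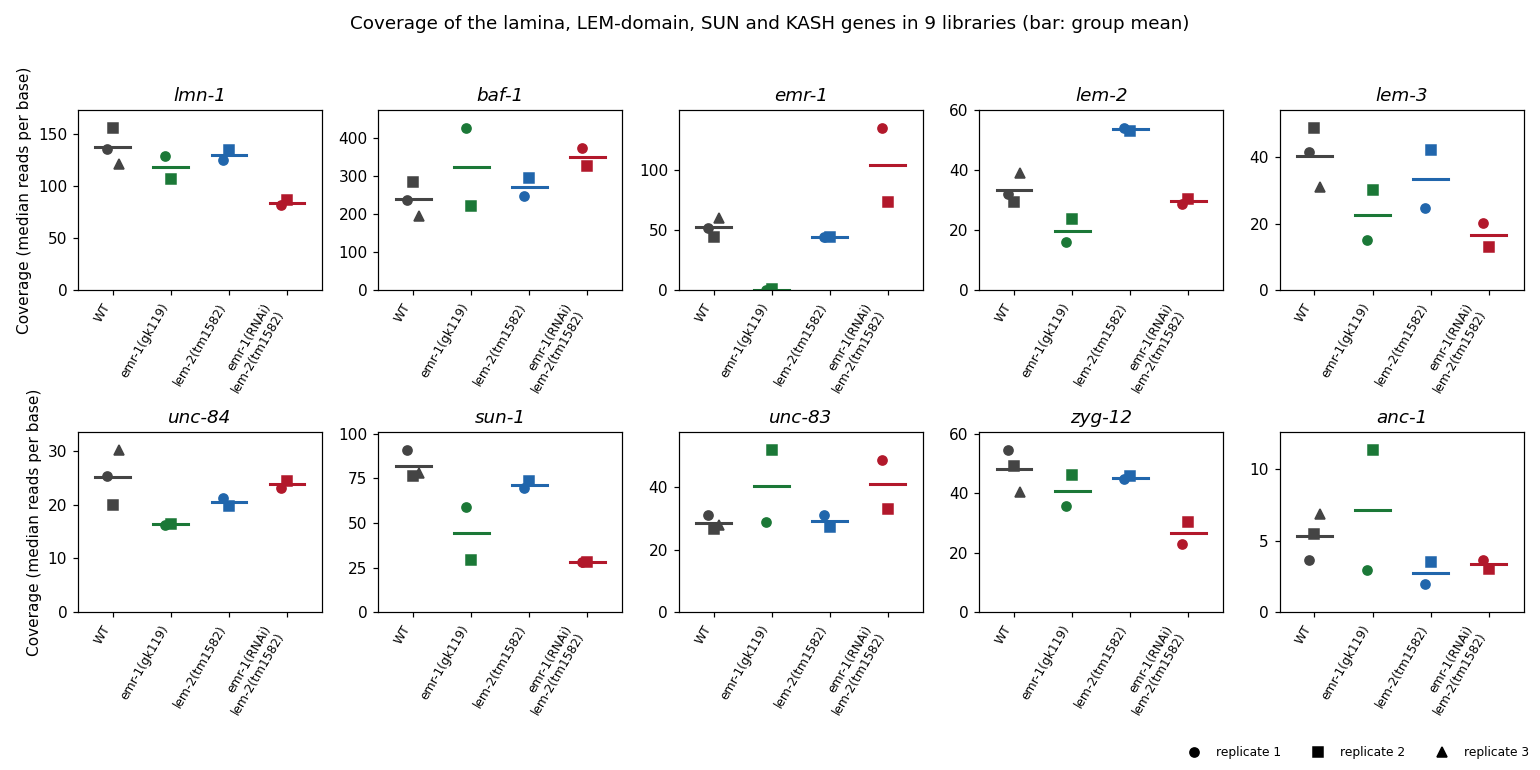
Coverage (median reads per base, linear axis from 0) of the 10 genes in the 9 libraries, 1 panel per gene, with a point for each library, its shape for the replicate number and a bar at the group mean. Coverage of emr-1 is 0 and 1.50 in emr-1(gk119) but 134.8 and 73.5 in the double libraries, and both double libraries of lmn-1, lem-3, sun-1 and zyg-12 lie below all 3 WT libraries.

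The gene emr-1 (M01D7.6; WBcel235 chromosome I, 1842445 to 1843227, plus strand, 3 to 4 exons per transcript) checks the labels. Its coverage was 52.1, 44.6 and 60.5 in WT and 0 and 1.50 in emr-1(gk119). The deletion strain was near 0 in both libraries, and emr-1 fell by 5.07 (SE 0.41) on the log2 scale (adjusted p = 0.00121). Coverage in lem-2(tm1582) was 44.5 and 44.4, just under the lowest WT library, with a log2 change of -0.22 (95% interval -1.18 to 0.74, adjusted p = 0.843).

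Coverage of emr-1 was 134.8 and 73.5 in the libraries whose label names emr-1(RNAi). Both values lay above every WT and every lem-2(tm1582) library, the opposite direction from the label, with log2 changes of 0.92 (SE 0.41, adjusted p = 0.113) against WT and 1.15 (SE 0.45, adjusted p = 0.120) against lem-2(tm1582). Neither passed the test, and the 2 libraries themselves differed by 0.87 on the log2 scale. In other settings emr-1 was called higher against WT with a pseudocount of 5 (0.88, adjusted p = 0.0304) and without emr-1(gk119) replicate 1 or 2 (adjusted p = 0.042 and 0.0425), and against lem-2(tm1582) with a pseudocount of 5 (1.08, adjusted p = 0.0366). Reads of the worm's own emr-1 transcript and of the fed dsRNA, which spans the whole cDNA, cannot be told apart in these values. The paper reports many dead embryos from worms treated in this way and takes them as evidence that the RNAi worked. The changes of emr-1(gk119) against WT and of the double libraries against lem-2(tm1582) were thus opposite in sign for emr-1. The difference between the 2 changes was 6.21 (SE 0.61, adjusted p = 0.0134, limma). Of all loci 0.445% passed this test (0.261% with a positive difference), and emr-1 was the 1 gene of the 10 to pass it. The gene is deleted in emr-1(gk119), so 1 of the 2 changes was set by the strain and the call says nothing about the partners. That call was lost (adjusted p above 0.05) without WT replicate 1 and without any single lem-2(tm1582) or double library, with differences from 4.40 to 8.19 over the settings tried.

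Coverage of lem-2 (W01G7.5; chromosome II, 14063450 to 14066646, plus strand, 3 exons), whose product shares LEM domain and membrane position with emerin, was 32.2, 29.3 and 39.0 in WT. It was 54 and 53.2 in lem-2(tm1582), above every WT library, with a log2 change of 0.67 (SE 0.20, adjusted p = 0.179). A transcript can still be made in the deletion strain, and a median over exons does not show whether part of it is missing. In emr-1(gk119) lem-2 coverage was 16.1 and 23.8, below all WT libraries, and lem-2 fell by 0.73 (SE 0.20, adjusted p = 0.0481), that is 1.66-fold on the scale of coverage + 1. This call was at the edge of the threshold: without emr-1(gk119) replicate 1 the change was -0.47 (adjusted p = 0.162), and it stayed above 0.05 in 12 of 18 other settings, among them leaving out any single library other than emr-1(gk119) replicate 2.

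The double libraries carry the same lem-2(tm1582) allele as the single mutant, yet their lem-2 coverage was 28.9 and 30.5, below both libraries of the single mutant and within or just under the WT range. Against lem-2(tm1582), lem-2 fell by 0.83 (SE 0.22, adjusted p = 0.0445), and against WT the log2 change was -0.16 (95% interval -0.63 to 0.32). The first call was lost in 9 of 18 other settings, with changes from -0.96 to -0.76. The change of lem-2 was -0.73 in emr-1(gk119) against WT and -0.83 in the double libraries against their lem-2(tm1582) controls, with a difference between them of -0.10 (95% interval -0.80 to 0.61).

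Summed coverage of emr-1 and lem-2 was 84.3, 73.9 and 99.5 in WT, 16.1 and 25.3 in emr-1(gk119), 98.5 and 97.7 in the lem-2(tm1582) libraries, and 163.7 and 104.0 in the double libraries. Only emr-1(gk119) had less than WT by this sum. In the double libraries emr-1 made up 134.8 and 73.5 of it, where transcript and fed dsRNA cannot be told apart. The lem-2 part comes from the tm1582 allele in the lem-2(tm1582) and the double libraries. The ratio of emr-1 to lem-2 was 1.62, 1.52 and 1.55 in WT, 0.82 and 0.83 in lem-2(tm1582), and 4.66 and 2.41 in the double libraries. These sums and ratios, like the others below, were chosen after the values were seen and are given without a test.

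The third LEM gene, lem-3 (F42H11.2; chromosome I, 9578526 to 9581267, minus strand, 7 exons), encodes a LEM-domain nuclease that acts on DNA bridges between dividing cells and is not an inner membrane protein. Its coverage was 41.3, 48.5 and 31.1 in WT, 15.2 and 30.1 in emr-1(gk119), 24.6 and 42.2 in the lem-2(tm1582) libraries, and 20.2 and 13.1 in the double libraries. The double libraries lay below all others except emr-1(gk119) replicate 1, and lem-3 fell by 1.23 (SE 0.38, adjusted p = 0.0359) against WT. The call was lost without WT replicate 1 (-1.20, adjusted p = 0.0868), without WT replicate 2 (-1.09, adjusted p = 0.0943), and without double replicate 1 or 2 (-1.53, adjusted p = 0.0805, and -0.94, adjusted p = 0.207). In emr-1(gk119) both libraries were also under the WT range, with a change of -0.86 (SE 0.38, adjusted p = 0.160), and in lem-2(tm1582) the libraries overlapped with WT.

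The lamin gene lmn-1 (DY3.2; chromosome I, 8763041 to 8765631, plus strand, 6 exons) had coverage of 136.1, 155.7 and 121.2 in WT, 129.4 and 106.9 in emr-1(gk119), 125.3 and 135.2 in the lem-2(tm1582) libraries, and 81.7 and 86.4 in the double libraries. The double libraries were the lowest of the 9, and neither single mutant was separated from WT. In the double libraries lmn-1 fell by 0.70 (SE 0.15, adjusted p = 0.0109), or 1.62-fold, against WT and by 0.63 (SE 0.17, adjusted p = 0.0446) against lem-2(tm1582). The change was -0.22 in emr-1(gk119) (95% interval -0.58 to 0.14) and -0.07 in lem-2(tm1582) (95% interval -0.43 to 0.29). Without double replicate 1 the change against WT was -0.66 with an adjusted p of 0.0704, and over the 18 settings it ranged from -0.81 to -0.61. The call against lem-2(tm1582) was lost in 8 of 18 other settings, among them without WT replicate 1 (adjusted p = 0.0750). The 8 include the fits without any single lem-2(tm1582) or double library (-0.68 to -0.57). These fits leave a single library in a group, and fewer of all loci were called with them.

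BAF-1 is bound by lamin and by the LEM domain and helps to rebuild the nucleus after mitosis. Coverage of baf-1 (B0464.7; chromosome III, 9467464 to 9468058, plus strand, 2 exons) was 236.8, 284.2 and 195.4 in WT, 424.9 and 220.9 in emr-1(gk119), 247.9 and 295.0 in the lem-2(tm1582) libraries, and 372.6 and 326.3 in the double libraries. Both double libraries were above all WT libraries, with a log2 change of 0.56 (SE 0.29, adjusted p = 0.159). None of the comparisons of baf-1 passed the test, and the emr-1(gk119) change of 0.38 became -0.10 without emr-1(gk119) replicate 1, which held the highest value.

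In the double libraries lmn-1 lay below WT and baf-1 above it, though the change of baf-1 was not called. Their ratio was taken within each library. The ratio of baf-1 to lmn-1 was 1.74, 1.83 and 1.61 in WT, 3.28 and 2.07 in emr-1(gk119), 1.98 and 2.18 in the lem-2(tm1582) libraries, and 4.56 and 3.78 in the double libraries. Every mutant library stood above every WT library, and the double libraries stood above all others. The ratio of lem-2 to lmn-1 was 0.24, 0.19 and 0.32 in WT and 0.12 and 0.22 in emr-1(gk119). It was 0.43 and 0.39 in the lem-2(tm1582) libraries and 0.35 and 0.35 in the double libraries, above WT in both groups. In the double libraries lem-2 itself was 28.9 and 30.5, against 29.3 to 39.0 in WT, while lmn-1 was below WT. Only in the lem-2(tm1582) libraries was lem-2 coverage above WT.

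**Figure D2:**
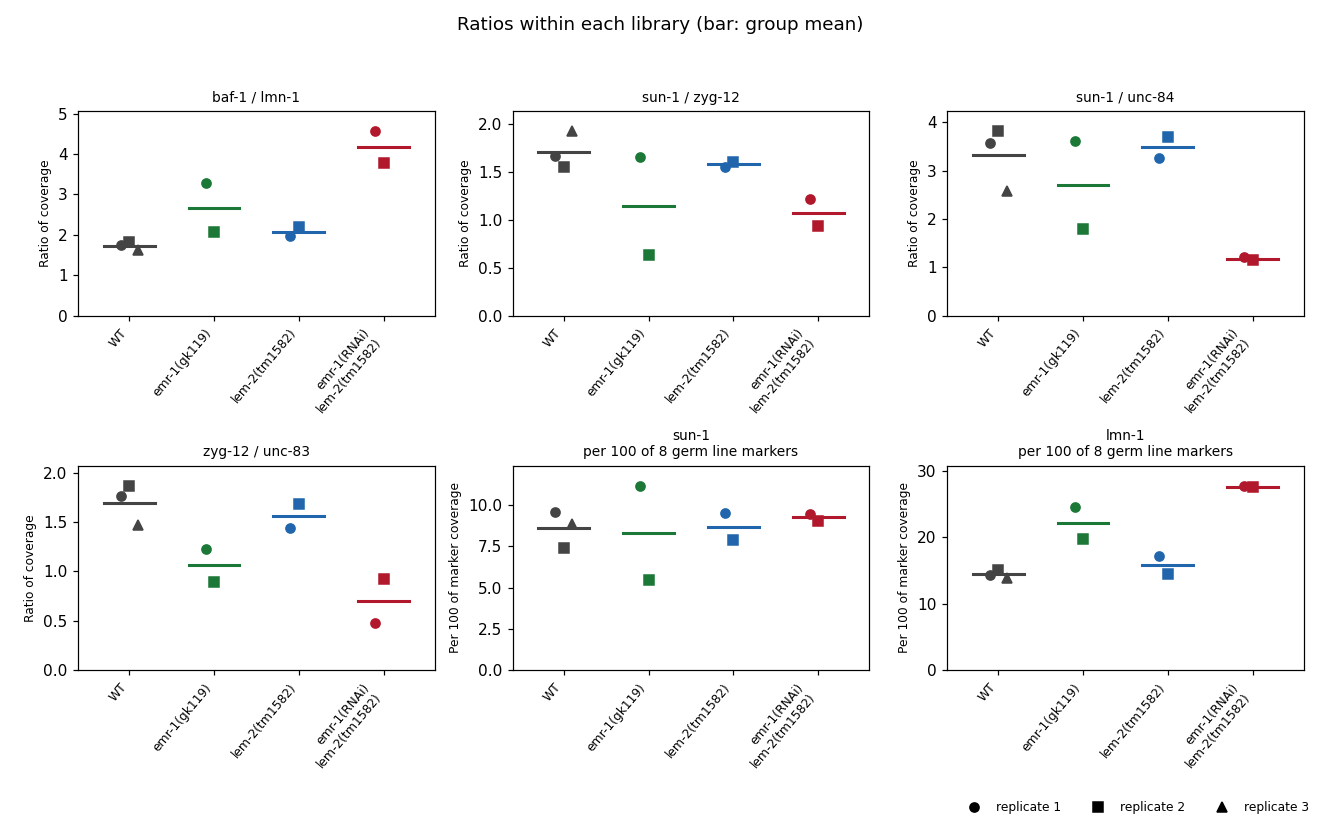
Ratios of coverage between pairs of the genes, and coverage of sun-1 and lmn-1 per 100 of the summed coverage of 8 germ line markers, in each of the 9 libraries (linear axes from 0, point shape for the replicate number, bar at the group mean). The ratio of baf-1 to lmn-1 is 1.61 to 1.83 in WT and 3.78 to 4.56 in the double libraries, whereas sun-1 per 100 of marker coverage is 7.39 to 9.57 in WT and 9.03 to 9.47 in the double libraries.

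Of the SUN genes, unc-84 (F54B11.3; chromosome X, 13584775 to 13589821, plus strand, 7 to 10 exons) serves most somatic nuclei. Its coverage was 25.4, 20.0 and 30.2 in WT, 16.3 and 16.4 in emr-1(gk119), 21.2 and 19.8 in the lem-2(tm1582) libraries, and 23.2 and 24.5 in the double libraries. Both emr-1(gk119) libraries were below WT, with a log2 change of -0.57 (SE 0.20, adjusted p = 0.0863), which passed the test only without WT replicate 2 (-0.73, adjusted p = 0.0454). The double libraries lay inside the WT range, with a change of -0.06 (95% interval -0.52 to 0.40).

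The germ line SUN gene sun-1 (F57B1.2; chromosome V, 13191700 to 13193538, minus strand, 5 exons) had coverage of 90.8, 76.2 and 77.9 in WT, 58.9 and 29.4 in emr-1(gk119), 69.3 and 73.3 in the lem-2(tm1582) libraries, and 27.9 and 28.3 in the double libraries. Every mutant library was below every WT library, and the double libraries were the lowest. In the double libraries sun-1 fell by 1.50 (SE 0.27, adjusted p = 0.00503), or 2.83-fold, against WT, the largest of the 4 called falls. Against lem-2(tm1582) it fell by 1.31 (SE 0.29, adjusted p = 0.0274). The call against WT held in all 18 other settings, with changes from -1.67 to -1.38. The call against lem-2(tm1582) was lost whenever a library of either group was left out, with changes from -1.35 to -1.27. Such a fit leaves a single library in that group, and fewer of all loci were called with it.

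In emr-1(gk119) the change of sun-1 was -0.95 (SE 0.27, adjusted p = 0.0503), just short of the threshold. The 2 libraries were 0.98 apart on the log2 scale, and without replicate 1 the change was -1.44 (adjusted p = 0.0156). For lem-2(tm1582) the change was -0.19 (95% interval -0.81 to 0.43).

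The KASH partner of sun-1, zyg-12 (ZK546.1; chromosome II, 4949900 to 4953492, plus strand, 8 to 10 exons), which anchors dynein and the centrosome at the nucleus, had coverage of 54.6, 49.4 and 40.6 in WT, 35.6 and 46.3 in emr-1(gk119), 44.8 and 45.7 in the lem-2(tm1582) libraries, and 23.1 and 30.4 in the double libraries. The double libraries were again the lowest of the 9, and zyg-12 fell by 0.83 (SE 0.20, adjusted p = 0.0159), or 1.78-fold, against WT. Without WT replicate 1 the change was -0.74 (adjusted p = 0.0505), and without double replicate 1 it was -0.64 (adjusted p = 0.111). Against lem-2(tm1582) it was -0.75 (SE 0.22, adjusted p = 0.0574). The ratio of sun-1 to zyg-12 was 1.66, 1.54 and 1.92 in WT and 1.21 and 0.93 in the double libraries, and 1.65 and 0.64 in emr-1(gk119), whose libraries did not agree.

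No comparison of the somatic KASH genes passed the test. Coverage of unc-83 (W01A11.3; chromosome V, 6465065 to 6487883, plus strand, 9 to 16 exons), which recruits kinesin and dynein to migrating nuclei, was 31, 26.5 and 27.7 in WT, 28.9 and 51.8 in emr-1(gk119), 31.1 and 27.1 in the lem-2(tm1582) libraries, and 48.6 and 33.1 in the double libraries. The double libraries were above WT, with a log2 change of 0.49 (SE 0.27, adjusted p = 0.196). Its 3 transcripts differed by 1.14 to 1.72 times within a library. Coverage of anc-1 (ZK973.6; chromosome I, 4318033 to 4359092, plus strand, 19 to 30 exons) was 3.61, 5.44 and 6.86 in WT, 2.94 and 11.31 in emr-1(gk119), 2.00 and 3.50 in the lem-2(tm1582) libraries, and 3.67 and 3.00 in the double libraries. At this level the groups could not be told apart: the change in the double libraries was -0.51 (95% interval -1.65 to 0.63).

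The pairs that act in soma and germ line separated in the double libraries. The ratio of sun-1 to unc-84 was 3.57, 3.82 and 2.58 in WT, 3.61 and 1.79 in emr-1(gk119), 3.27 and 3.70 in the lem-2(tm1582) libraries, and 1.21 and 1.16 in the double libraries. The ratio of zyg-12 to unc-83 was 1.76, 1.86 and 1.47 in WT, 1.23 and 0.89 in emr-1(gk119), 1.44 and 1.69 in the lem-2(tm1582) libraries, and 0.47 and 0.92 in the double libraries. For both ratios the double libraries were under every WT and lem-2(tm1582) library.

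Germ line markers moved in the same libraries. The summed coverage of 8 germ line markers was 878 to 1032 in WT and 528 to 540 in emr-1(gk119). It was 728 to 933 in lem-2(tm1582) and 295 to 314 in the double libraries. Of the 8, 6 were called lower in the double libraries against WT, where 12% of all loci were. The sum of 5 oocyte markers was 1042 to 1063 in WT and 405 to 454 in emr-1(gk119). It was 672 to 765 in lem-2(tm1582) and 180 to 184 in the double libraries. Against WT, 5 of 5 were called lower both in emr-1(gk119) (6.27% of all loci) and in the double libraries (12%). No marker of either list was at 0 in a whole group. The 5 sperm markers summed to 255 to 339 in WT and 335 to 364 in the double libraries, and none was called there. Most of that sum was msp-142, with a mean of 280 in WT and 316 in the double libraries. The 5 muscle markers summed to 797 to 1158 in WT and 1712 to 1924 in the double libraries, with 3 of 5 called higher (26.4% of all loci). Coverage of 5 embryo markers summed to 12.9 to 17.2 in WT and 39.8 to 53.3 in the double libraries. Most of it was elt-7, at 11.9, 14.2 and 13.2 in WT and 34.8 and 52.3 in the double libraries. The other embryo markers, end-1, med-1, pes-10 and tbx-37, were each at 0 in some library. In whole animals, fewer cells of a type and less RNA per cell cannot be told apart.

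The 4 genes called lower in the double libraries were also set against the germ line markers of the same library. Per 100 of summed germ line marker coverage, sun-1 was 9.57, 7.39 and 8.88 in WT, 11.1 and 5.45 in emr-1(gk119), 9.52 and 7.86 in the lem-2(tm1582) libraries, and 9.47 and 9.03 in the double libraries, so that the double libraries lay within the WT range. By the same measure lmn-1 was 14.3, 15.1 and 13.8 in WT and 27.7 and 27.6 in the double libraries, and zyg-12 was 5.75, 4.79 and 4.63 in WT and 7.82 and 9.70 in the double libraries. Both genes were higher per summed marker coverage than in WT. The sum leans on mex-5, whose mean coverage was 454 in WT and 96.9 in the double libraries, and single markers changed less (glh-1 by -0.51 and syp-1 by -0.74, against -2.21 for mex-5). For lem-3 the WT values of 4.35, 4.70 and 3.54 overlapped with the double values of 6.86 and 4.18. Per 100 of the 7 markers without mex-5, a sum added after seeing the data, lmn-1 was 27.2, 30.1 and 25.4 in WT and 41 and 40.1 in the double libraries, zyg-12 was 10.9, 9.54 and 8.50 in WT and 11.6 and 14.1, and sun-1 was 18.1, 14.7 and 16.3 in WT and 14 and 13.1, just under the WT range. Against the 5 oocyte markers instead, sun-1 was 8.71, 7.20 and 7.33 in WT and 15.2 and 15.7 in the double libraries. How much of each change in the 4 genes the germ line accounts for was not tested.

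**Figure D3:**
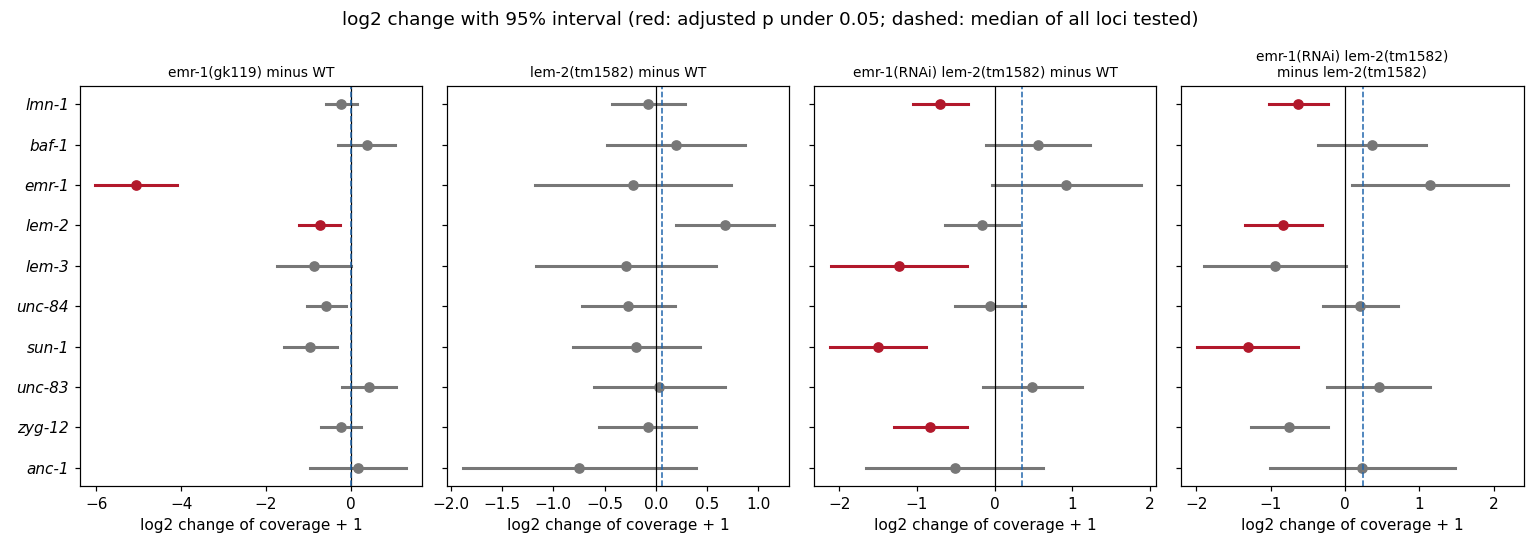
log2 changes of coverage + 1 of the 10 genes (points) with 95% intervals (lines) in 4 comparisons, red where the adjusted p is under 0.05, with the median of all 19567 loci as a dashed line (the x axes differ in range). No gene is red to the right of 0, and in the double libraries against WT the called genes are lem-3 (-1.23), lmn-1 (-0.70), zyg-12 (-0.83) and sun-1 (-1.50).

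Counted over the 10 genes, none was called higher in any comparison with WT or of the double libraries with lem-2(tm1582). Some other settings called emr-1 higher, as given above. In emr-1(gk119), 2 of 10 were called lower and 0 higher by limma. They were lem-2 and emr-1, and emr-1 is the gene deleted in this strain, so its fall says nothing about the partners. Over all loci 16.6% were called, 10.3% higher and 6.27% lower. At an unadjusted p under 0.05 there were 4 of the 10 genes, the others being unc-84 and sun-1, all of them lower. In lem-2(tm1582) 0 of 10 were called by limma and 1, lem-2, had an unadjusted p under 0.05, where 0.046% of all loci were called (0.0358% higher and 0.0102% lower). Of the 10 genes, 4 were called lower and 0 higher in the double libraries against WT, with 38.4% of all loci called, 26.4% higher and 12% lower, and the same 4 had an unadjusted p under 0.05. Against lem-2(tm1582), 3 of 10 were called lower (lem-2, lmn-1 and sun-1) and 0 higher, with 16.5% called, 10.2% higher and 6.27% lower, and at an unadjusted p under 0.05 there were 5, with zyg-12 lower and emr-1 higher besides.

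The medians of the 10 genes lay below those of all loci. They were -0.40 (the deleted emr-1 included) against 0.01 in emr-1(gk119), and -0.13 against 0.06 in lem-2(tm1582). In the double libraries they were -0.33 against 0.35, and -0.21 against 0.25 when compared with lem-2(tm1582). By the order of the libraries alone, 3 genes (emr-1, baf-1 and unc-83) lay wholly above WT in the double libraries and 4 wholly below, where 41.8% and 19.2% of all loci did so. In emr-1(gk119), 5 genes lay wholly below WT (lem-2, lem-3, unc-84, sun-1 and the deleted emr-1) and 0 above. Over all loci the shares were 19.5% and 22.1%. In lem-2(tm1582), 1 gene (lem-2) lay wholly above WT and 3 (emr-1, anc-1 and sun-1) wholly below, where 20.8% and 12% of all loci did. Against lem-2(tm1582) the double libraries were wholly above for 4 genes (emr-1, baf-1, unc-83 and unc-84) and wholly below for 5, with anc-1 overlapping, where 41.9% and 21.8% of all loci were so placed. The comparisons with WT share the 3 WT libraries and are not independent of each other.

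Replicates of emr-1(gk119) differed more for these genes than those of other groups. The median absolute log2 difference between its 2 libraries over the 10 genes was 0.88, against 0.22, 0.25 and 0.38 for the WT pairs, 0.10 for the lem-2(tm1582) pair and 0.21 for the double pair. Over all loci whose mean coverage reached 20 the same measure was 0.38 in emr-1(gk119) and 0.18 to 0.31 in the other groups. In emr-1(gk119), 6 of the 10 genes differed by over 0.8 between replicates, with anc-1 (1.64) the widest, followed by emr-1 (1.32), sun-1 (0.98), baf-1 (0.94), lem-3 (0.94) and unc-83 (0.82). In the other groups 0, 0 and 1 genes did. Values of these genes in emr-1(gk119) are therefore the least certain of the 4 groups.

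Partners of the envelope genes were read from lists of genes by role. Of 9 genes that release BAF-1 from DNA or rebuild the nucleus, 6 were called lower and 0 higher in the double libraries against WT. Their median was -0.97 against 0.35 for all loci, of which 12% were called lower and 26.4% higher. The kinase vrk-1, which releases BAF-1 by phosphorylation, fell by 1.11 (SE 0.18, adjusted p = 0.00378), and lem-4, which returns BAF-1 to chromatin through the opposite reaction, fell by 1.16 (SE 0.21, adjusted p = 0.00534). The nucleotide exchange factor of Ran, ran-3, fell by 1.73 (SE 0.19, adjusted p = 0.00120), and the importin imb-1 fell by 1.10 (SE 0.24, adjusted p = 0.0108), a call lost without double replicate 1 (-0.90, adjusted p = 0.0862). In emr-1(gk119), 3 of the 9 were called lower, where 6.27% of all loci were. Among them ran-3 fell by 1.08 and lem-4 fell by 0.81. The call of ran-3 was lost without emr-1(gk119) replicate 2 (adjusted p = 0.0560), and that of lem-4 in 11 other settings, among them without any single WT or emr-1(gk119) library and without either double library (adjusted p from 0.0585 to 0.134).

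Of 10 genes listed under perinuclear chromatin anchoring, 7 were called lower and 0 higher in the double libraries against WT. Their median was -1.08, and over all loci 12% were called lower and 26.4% higher. The list groups genes by topic, cbp-1 and mrg-1 among them, and does not mean that each product is itself an anchor. The largest falls were those of cec-4, the perinuclear reader of methylated histone H3 (which fell by 2.13, SE 0.49, adjusted p = 0.0124), lin-65 (which fell by 1.71), mrg-1 (which fell by 1.67) and the methyltransferase set-25 (which fell by 1.28). The cec-4 call was lost without double replicate 1 (-1.94, adjusted p = 0.0983) or replicate 2 (-2.33, adjusted p = 0.0553). Coverage of mrg-1 was 183.6, 156.0 and 210.7 in WT, 95.4 and 99.8 in emr-1(gk119), 124.5 and 134.4 in the lem-2(tm1582) libraries, and 52.5 and 61.2 in the double libraries, with no overlap between the groups. In emr-1(gk119), 3 of the 10 were called lower (6.27% of all loci): lin-65 fell by 1.12, mrg-1 fell by 0.89 and set-25 fell by 0.77. The set-25 call was lost when any single library was left out (adjusted p from 0.0508 to 0.132), and the mrg-1 call without emr-1(gk119) replicate 1 (adjusted p = 0.0516).

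The list of the inner membrane, of membrane lipids and of ESCRT, the machinery that seals the envelope, had 9 tested genes. In the double libraries against WT 3 were called lower and 1 higher (12% and 26.4% of all loci), with a median of -0.38. Of the inner membrane proteins, nemp-1 fell by 1.05 and samp-1 fell by 0.87, and the lipin lpin-1 fell by 0.79. Without double replicate 1 the calls of nemp-1 (-0.95, adjusted p = 0.0724) and samp-1 (-0.79, adjusted p = 0.0596) were lost, and without double replicate 2 that of lpin-1 (-0.73, adjusted p = 0.0606). The gene called higher was the torsin tor-1 (1.07, SE 0.24, adjusted p = 0.0125). Its coverage went from 1.00, 1.50 and 2.00 in WT to 4.67 and 3.72. Its call was lost after repeated quantile normalization (0.62, adjusted p = 0.144) and without double replicate 1 (0.94, adjusted p = 0.0782).

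In the list of motors and adaptors of nuclear migration and anchorage, 3 of 16 genes were called higher in the double libraries against WT. A further 2 were called lower (list median -0.29). These shares were near those of all loci, of which 26.4% were called higher and 12% lower. The list also holds the tubulin genes tba-2 and tbb-2. The dynein adaptors egal-1 and bicd-1 rose by 1.60 (SE 0.19, adjusted p = 0.00143) and 1.22 (SE 0.19, adjusted p = 0.00334), and both also rose in emr-1(gk119), by 1.50 and 0.88. The bicd-1 call in emr-1(gk119) was lost without WT replicate 1 or 2 and without either emr-1(gk119) library (adjusted p from 0.0552 to 0.0950). Coverage of egal-1 was 27.1, 33.5 and 30.2 in WT, 94.9 and 80.2 in emr-1(gk119), 43.3 and 35.9 in the lem-2(tm1582) libraries, and 108.6 and 80.2 in the double libraries. The kinesin light chain klc-1 fell by 1.41 (SE 0.23, adjusted p = 0.00384) and the tubulin tbb-2 fell by 0.70 (SE 0.20, adjusted p = 0.03), a call lost without WT replicate 1 or 2 and without either double library (-0.87 to -0.52, adjusted p from 0.0617 to 0.177).

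The meiotic list held 11 genes that pair chromosomes through SUN-1 and ZYG-12 or act on them in meiosis. In the double libraries against WT 7 were called lower and 0 higher (12% and 26.4% of all loci), with a median of -0.87. The polo kinases plk-1 and plk-2, which are recruited to chromosome ends at the envelope, fell by 1.83 (SE 0.14, adjusted p = 0.000555) and 1.10 (SE 0.20, adjusted p = 0.00576). The axis gene htp-3 fell by 1.74 (SE 0.42, adjusted p = 0.0158) and the pairing-centre protein gene zim-3 fell by 1.53 (SE 0.24, adjusted p = 0.00318). Without double replicate 1 the calls of htp-3 (-1.21, adjusted p = 0.125) and plk-2 (-1.04, adjusted p = 0.0512) were lost. Of this list, htp-3, him-3 and syp-1 also stand in the germ line marker list, so the lists are not separate evidence. The calls of the lists in the double libraries stand beside the fall of germ line and oocyte markers given above, whose part in them was not tested.

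**Figure D4:**
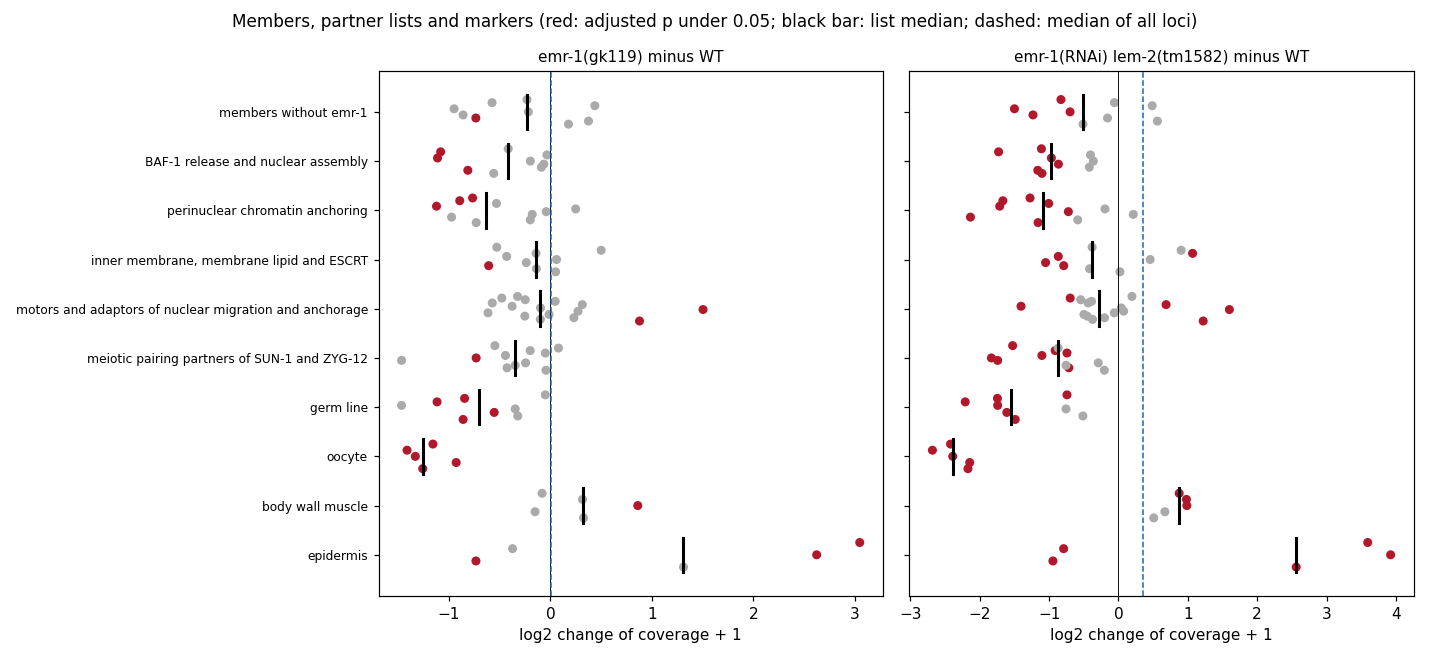
log2 changes of coverage + 1 of the 10 genes without emr-1, of 5 lists of their partners and of 4 marker lists, in emr-1(gk119) and in the double libraries against WT, 1 point per gene, red where the adjusted p is under 0.05, with a black bar at the list median and a dashed line at the median of all loci (the x axes differ in range). In the double libraries 7 of 10 genes of the chromatin anchoring list and 7 of 11 of the meiotic list are called lower (12% of all loci). The genes egal-1 (1.60) and bicd-1 (1.22) stand at the right of the motor list.

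The genes whose coverage tracked a member most closely over the 9 libraries were taken for the 4 genes with the widest range of group means that remained after emr-1. For sun-1 these were skr-2 (Pearson r = 0.98), nduf-2.2 (0.98) and unc-101 (0.97). For lem-3 they were tbb-2 (0.99), eftu-2 (0.98) and imph-1 (0.98), and tbb-2 is among the called genes of the motor list above. For lem-2 they were tomm-70 (0.96), epic-1 (0.93) and msp-49 (0.92), the last a member of a sperm protein family with near-identical copies, so its own value is uncertain. For anc-1 they were apc-11 (0.91), ifa-1 (0.91) and acdh-11 (0.88). Coverage of apc-11 itself ran from 2.00 to 132 within WT and was 3.00 and 171 in emr-1(gk119), so its likeness to anc-1 rests on a few libraries. These are the highest of the 8108 or 8109 correlations computed for each gene, on 9 points that fall into 4 groups and share their normalization, and they are given as a description.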

How the data were processed

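Poly(A) RNA of 9 libraries of whole young adult worms was analysed, grouped by the genotype in their labels (3 WT, 2 emr-1(gk119), 2 lem-2(tm1582), 2 emr-1(RNAi) lem-2(tm1582)). The authors aligned reads to WS231 with TopHat, sorted them with Samtools, and deposited signal values, namely coverage: the median over each exon of the Ensembl annotation, quantile-normalized over the 9 libraries on exons, then the median of a transcript's exons. These are not counts, and total reads were not used. Of the 49395 rows, 15786 are 0 in every library, and 99.1% matched the WBcel235 annotation, which gave names, exon numbers and coordinates, and no coordinate was converted between builds. Sequences are not printed here.

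Rows of a locus were averaged, and log2(coverage + 1) of the 19567 loci with a mean of at least 1 was tested with limma 3.58.1 in R 4.3.3 (mean-variance trend, all 9 libraries in 1 fit, two-sided), with Benjamini-Hochberg adjustment within each comparison and a threshold of 0.05. The study's own SAM method was replaced by limma because its package was not at hand. An interaction term compared the change of the double libraries against lem-2(tm1582) with that of emr-1(gk119) against WT. The fit was tested on simulated data. Alternatives tried were pseudocounts of 0.1 and 5, no filter or a minimum of 5, the highest row of a locus, only the compared groups, no trend, a block for the replicate number, repeated quantile normalization and each library left out. A germ line marker sum without mex-5 was added after seeing the data.

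The 10 genes, the partner lists and the marker lists (germ line, oocyte, sperm, body wall muscle, intestine, neurons, epidermis, embryo) were chosen with earlier results of these data known. From each partner list, at most 4 genes called in emr-1(gk119) or in the double libraries were named, those with the largest change in the double libraries, and mrg-1 and egal-1 were shown by library after their values were seen. The listed gene ndc-1 was not matched. The most similar patterns were sought among loci whose mean coverage reached 20.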

Additional observations from a re-analysis of the deposited data

Results flagged for a closer look

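One result stood out because 2 contrasts whose labels both name emr-1 differed. The changes of emr-1(gk119) against WT and of the double libraries, which carry the label emr-1(RNAi) but had no lower emr-1 coverage, against lem-2(tm1582) were of opposite sign for emr-1 (-5.07, called, and 1.15, not called), and the difference between the 2 changes was 6.21 on the log2 scale (SE 0.61, adjusted p = 0.0134, limma). That call was lost in 7 of 17 other settings. The gene is deleted in emr-1(gk119), so its fall there was set by the strain. Coverage was 0 and 1.50 in the deletion libraries, and 134.8 and 73.5 in the double libraries against 44.5 and 44.4 in their lem-2(tm1582) controls. The background and the way of targeting emr-1 change together here and cannot be told apart, and neither can transcript and fed dsRNA.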

How the results depend on the processing

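Of the 10 genes, 2 were called in emr-1(gk119) against WT, and 1 was called with no filter, with only the compared groups, without the trend or with the replicate block, and 3 with a pseudocount or minimum of 5 or repeated quantile normalization (1 to 2 when single libraries were left out). In lem-2(tm1582) against WT 0 were called in every setting. In the double libraries against WT 4 were called, and 5 with a pseudocount of 5 and 3 with no filter or the block (1 to 5 when single libraries were left out, 1 of them without double replicate 1). Against lem-2(tm1582) 3 were called, 1 with no filter, without the trend or with the replicate block, and 4 with a pseudocount or minimum of 5 or repeated quantile normalization (0 to 3 when single libraries were left out). The difference between the 2 changes was called for 1 gene, emr-1, and for 0 with a pseudocount of 0.1 or the replicate block (0 to 1 when single libraries were left out). Same-numbered libraries did not deviate together (correlations of -0.13 to 0.06 across loci), so the block is given for completeness. Signs changed only for values that were never called, though not all were near 0 (baf-1 was 0.38 in emr-1(gk119) with all libraries). In emr-1(gk119) against WT, leaving out single libraries gave -0.095 to 0.85 for baf-1, -0.64 to 1.00 for anc-1 and -0.30 to 0.020 for tor-1, with the low value of baf-1 without emr-1(gk119) replicate 1 and the low value of anc-1 and the high value of tor-1 without emr-1(gk119) replicate 2. There anc-1 was also -0.031 without WT replicate 1 and -0.087 after repeated quantile normalization. In lem-2(tm1582) against WT, leaving out single libraries gave -0.67 to 0.086 for lem-3, -0.16 to 0.019 for lmn-1, -0.19 to 0.014 for zyg-12 and -0.061 to 0.13 for unc-83, and unc-83 was -0.024 by its highest row and -0.052 after repeated quantile normalization. In the double libraries unc-84 ranged from -0.21 to 0.076 against WT when single libraries were left out, and was 0.076 with the replicate block. Against lem-2(tm1582) anc-1 ranged from -0.059 to 0.53 when single libraries were left out, and was -0.13 after repeated quantile normalization. Over all comparisons, 658 of 733 values of the 10 genes kept direction and side of the threshold, 49 lost the call, 11 gained it and 15 changed sign, and of 718 values of partner genes 651 kept both, 60 lost the call, 6 gained it and 1 changed sign. The cause was not tested. The share of all loci called varied by over 1.5 times: from 4.22% to 24.9% in emr-1(gk119), 0.00511% to 0.772% in lem-2(tm1582), 17.5% to 51.2% in the double libraries against WT, 0% to 27.1% against lem-2(tm1582), and 0.046% to 2.25% for the difference. With a minimum coverage of 5, anc-1 was not tested. Groups of 2 libraries and the lack of read totals limit the precision, most of all for anc-1. Leaving out a library of a group of 2 lowered the number of loci called in each comparison with that group. A call lost in such a fit is therefore not particular to the gene.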

Other observations

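The remaining marker lists moved less evenly than those of the germ line. In the double libraries against WT, 26.4% of all loci were called higher and 12% lower. The summed coverage of 5 epidermis markers was 1219 to 1531 in WT and 903 to 976 in the double libraries. Of the 5, 3 were called higher and 2 lower. That sum is mostly col-19, with a mean of 1270 in WT and 655 in the double libraries. The means of dpy-7, rol-6 and bli-1 went from 3.67, 12.5 and 4.19 in WT to 69.0, 148 and 28.4. That of lin-26 went from 68.9 to 39.1. The 5 neuron markers summed to 302 to 339 in WT and 256 to 287 in the double libraries. Again 3 were called higher, and 1 lower. Most of that sum is snb-1, with a mean of 252 in WT and 168 in the double libraries. The 5 intestine markers summed to 2665 to 3014 in WT and 2872 to 3808 in the double libraries, with 1 called higher. Of the 5 embryo markers, 2 reached the coverage minimum and 1 of them was called higher in the double libraries, where elt-7 held most of the sum. For the deletion strain emr-1(gk119), 4 of 8 germ line markers were called lower and 2 of 5 sperm markers higher. Of the muscle markers 1 of 5 was called higher, and of the intestine markers 1 of 5 lower. Of the 5 epidermis markers 2 were called higher (rol-6 by 3.05 and dpy-7 by 2.62) and 1 lower. Over all loci 10.3% were called higher and 6.27% lower in this strain.

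Against the oocyte markers, the genes called lower in the double libraries were all higher than in WT. Per 100 of summed oocyte marker coverage, lmn-1 was 13.1, 14.7 and 11.4 in WT and 44.5 and 48.1 in the double libraries, zyg-12 was 5.24, 4.66 and 3.82 in WT and 12.6 and 16.9 in the double libraries, and lem-3 was 3.96, 4.58 and 2.93 in WT and 11 and 7.29 in the double libraries. These quantities were chosen after the values were seen, and no explanation for them was tested.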
